A study of Homo sapiens with 18 samples.

Results

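The genes described here are 10 components of the epithelial tight junction, namely CLDN1, CLDN2, CLDN3, CLDN4, CLDN7, CLDN12, CLDN15, CLDN23, OCLN and TJP1. They were taken by name, as every non-control spot of the arrays that carries one of these gene names, and make up 10 of the 36204 gene names and 14 of the 50599 probes. Expression was measured on 18 one-colour Agilent arrays of 2 human colorectal cancer cell lines, HT29 and the oxaliplatin (OXA)-resistant HTOXAR3 obtained from it by growth in rising OXA doses. Each line was left untreated, treated for 24 h with OXA, or treated for 24 h with OXA plus Curcumin, a plant polyphenol, with 3 arrays labelled as biological replicates in each of the 6 groups. HT29 received 10 µM OXA and HTOXAR3 received 30 µM, each described by the submitters as the line's IC50 dose, and Curcumin was given at 10 µM to both. A comparison of the lines after treatment therefore also compares 2 doses of OXA. The effect of Curcumin was seen here only on top of OXA. HTOXAR3 is a single subline of a single parental line, so nothing here separates resistance from other differences between these 2 lines.

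Tight junctions seal the space between neighbouring epithelial cells near their apical side. Claudins are small proteins with 4 membrane passes whose strands either tighten this seal (CLDN1, CLDN3, CLDN4 and CLDN7 among them) or form pores in it, CLDN2 for cations and water and CLDN15 for cations. Occludin (OCLN) lies in the same strands, and TJP1, also called ZO-1, is the scaffold that ties claudins and occludin to the actin cytoskeleton. In the gut the balance of sealing and pore-forming claudins sets how leaky the epithelium is. The arrays report RNA and say nothing of the protein or its place in the cell.

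Intensities were corrected for background and quantile normalized, and all levels below are log2 intensities. The log2 differences are between group means, with standard errors (SE) or 95% confidence intervals (CI), from a limma fit over all 18 arrays. Called genes had a fold change above 1.2 and a p-value below 0.05 after Benjamini-Yekutieli (BY) adjustment over all names. Signal well above background was seen for 52.4% to 63.6% of the transcript spots, depending on the array, and 2 arrays of a group correlated at 0.985 or more. All 10 genes were well above background on all 18 arrays, and of the 252 values of their probes 1 was not. Both lines carried most of the markers of colon epithelium listed here. Of 10 such genes 8 were well above background on every array, while CDX2 passed on 10 arrays and CDH17 on 5, and the summed intensity of the list ran from 738100 in untreated HT29 to 881700 in HT29 under OXA and Curcumin. KRT18 and KRT19 made up most of that sum, with group means of 18.33 to 18.57 and 17.73 to 18.15. Some others varied more over the group means, VIL1 from 10.45 to 13.12, LGALS4 from 12.27 to 15.15 and CDX2 from 3.54 to 7.1. Of 8 fibroblast markers 1, VIM, passed on every array, COL1A2 and COL3A1 passed on none, and their summed intensity ran from 126.9 to 255.0. The endothelial claudin CLDN5 passed on no array, and the 5 endothelial markers summed to between 278.7 and 460.2. The 6 immune markers, of which 4 passed on every array, moved with line and drug. Their summed intensity was 2446 to 2703 in untreated HT29, 1551 to 1595 under OXA and 1968 to 2584 under both drugs, and in HTOXAR3 it was 3081 to 3242, 2229 to 2339 and 2473 to 2501. CD14 passed on all 18 arrays, and the part of these markers in the results below was not tested.

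The probes are 60 bases long, and their positions in the array's annotation are on the human build hg19. They are shown because 4 of the genes carry 2 probes that did not always move together. The brighter CLDN7 probe lies at chr17:7163822-7163986 on the minus strand, a stretch of 165 bases, so it crosses an exon junction. The second OCLN probe lies at chr5:68847386-68849429 on the plus strand and also spans exons, and its annotation lists a non-coding RefSeq transcript beside 3 OCLN mRNAs. The second CLDN12 probe lies within a single exon at chr7:90042478-90042537 on the plus strand. Each of these 60-mers reads without a stop codon in at least 1 frame.
CLDN7 brighter probe: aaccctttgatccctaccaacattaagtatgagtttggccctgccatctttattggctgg
OCLN second probe: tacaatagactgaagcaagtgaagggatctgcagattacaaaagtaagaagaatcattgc
CLDN12 second probe: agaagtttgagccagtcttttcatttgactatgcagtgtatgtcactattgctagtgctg

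The probes of CLDN1, CLDN2 and CLDN3 hold AATAAA, the spelling of the polyadenylation hexamer. Whether it is used, or the transcript ends there, was not examined. The 30 bases around the hexamer, which is in capitals, are shown for each of them. They lie at chr3:190024006-190024035 on the minus strand for CLDN1, at chr7:73183333-73183362 on the minus strand for CLDN3 and at chrX:106174057-106174086 on the plus strand for CLDN2. The CLDN2 probe lists 3 RefSeq mRNAs and so pools them.
CLDN1: atgtaatgggaagaAATAAAagcctacgtg
CLDN3: acttgatatttttcAATAAAagcctttcgt
CLDN2: cacagtaggtgatcAATAAAcacttgttga
Of the further probes, those of CLDN4 lie at chr7:73246907-73246966 (the brighter) and chr7:73244259-73244318, the second CLDN7 probe lies at chr17:7163269-7163328, and single probes shown without their sequence lie at chr7:100880822-100880881 for CLDN15 and chr15:29992527-29992586 for TJP1. The brighter probes of OCLN and CLDN12 lie at chr5:68849515-68849574 and chr7:90044941-90045000. Among the 91 pairs of the 14 probes the longest shared run of bases was 11, so the claudins were read by distinct sequences. Levels are compared below between groups for 1 probe at a time and never between genes.

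OCLN rose with OXA in both lines and rose further when Curcumin was added in HTOXAR3, while the pore-forming CLDN2 fell in the same comparisons. CLDN1 rose with OXA and fell when Curcumin was added, in both lines. CLDN4 and CLDN7 rose when Curcumin was added, in both lines, by their brighter probes. CLDN3 had the narrowest range of group means. It was called in 1 of 12 comparisons, the difference between the lines under OXA, and those means lay between 14.98 and 15.39.

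**Figure D1:**
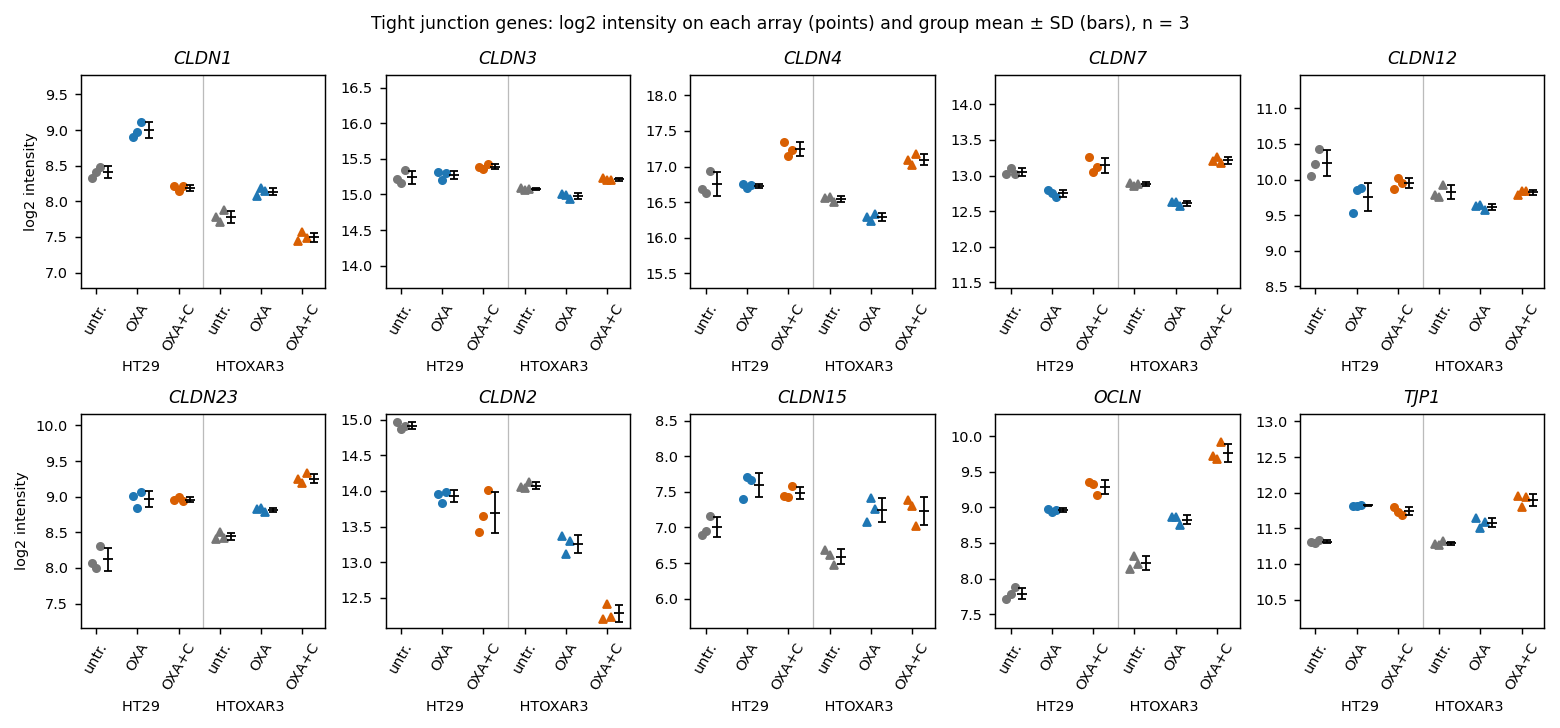
Log2 intensity of the 10 genes on each of the 18 arrays (circles HT29, triangles HTOXAR3, grey untreated, blue OXA, orange OXA plus Curcumin) with the group mean ± SD beside them (n = 3). Every panel spans 3 log2 units. OCLN climbs from a mean of 7.79 in untreated HT29 to 9.77 in HTOXAR3 under both drugs, and CLDN2 runs from 14.91 down to 12.28 over the same groups.

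In the untreated cells, the comparison asks how the resistant subline differs from its parent before any drug. Of the 10 genes 3 were called by limma with BY adjustment, against 11.5% of all names (6.26% higher and 5.28% lower). Among the 17463 names well above background on every array, called expressed names below, 21.5% were called, and the members' count was close to that share. CLDN2 and CLDN1 were lower and OCLN was higher in HTOXAR3. The median log2 difference of the 10 genes was -0.19, against -0.03 over all names.

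CLDN2, the cation and water pore, stood at 14.96, 14.87 and 14.91 in untreated HT29 and at 14.05, 14.04 and 14.13 in untreated HTOXAR3. The groups did not overlap, and CLDN2 was 1.79-fold lower in HTOXAR3 (log2 -0.84, SE 0.12, adjusted p = 0.00132, limma with BY). CLDN1, a sealing claudin, stood at 8.33, 8.42 and 8.48 in HT29 and at 7.78, 7.70 and 7.87 in HTOXAR3. It was 1.54-fold lower in HTOXAR3, again with no overlap (log2 -0.62, SE 0.071, adjusted p = 0.00017, limma with BY). OCLN went the other way, from 7.71, 7.78 and 7.88 in HT29 to 8.14, 8.32 and 8.20 in HTOXAR3. That rise was 1.35-fold (log2 0.43, SE 0.079, adjusted p = 0.0123, limma with BY). The OCLN call was lost with the slide as a block (0.41, adjusted p = 0.0554). It was also lost without untreated HT29 replicate 1 (0.39) or 2 (0.42) and without untreated HTOXAR3 replicate 2 (0.38).

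CLDN12, CLDN15 and CLDN23 missed the threshold before treatment with CI that excluded 0. Their log2 differences were -0.41 for CLDN12 (CI -0.63 to -0.19), -0.41 for CLDN15 (CI -0.67 to -0.15) and 0.32 for CLDN23 (CI 0.15 to 0.49), with adjusted p of 0.117, 0.292 and 0.115 by limma with BY. The sealing claudins CLDN3, CLDN4 and CLDN7 were between -0.16 and -0.21, and the CI of TJP1 ran from -0.14 to 0.10. At an unadjusted p below 0.05, 9 of the 10 genes differed, TJP1 being the exception. The share of all names at that threshold is not given here, so this count says nothing particular to the 10 genes.

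The same comparison under the drugs gave partly the same genes. Under OXA, 4 of the 10 genes were called, all lower in HTOXAR3, against 14.1% of all names (7.14% higher and 6.98% lower) and 26.4% of expressed names. CLDN1 was lower by 0.86 and CLDN2 by 0.67 on the log2 scale. CLDN4 and CLDN3 were lower as well, by 0.44 and 0.29 (adjusted p = 0.0105 and 0.0149, limma with BY), calls that did not hold under 75th percentile scaling. With that scaling of the processed intensity the adjusted p by limma with BY was 0.0518 for CLDN4 and 0.211 for CLDN3, and with that of the normexp values it was 0.0901 and 0.0888. The second CLDN4 probe gave 0.076. For CLDN4 the levels were 16.76, 16.69 and 16.73 in HT29 and 16.30, 16.23 and 16.34 in HTOXAR3. The calls of CLDN2 and CLDN4 were lost without HTOXAR3 OXA replicate 2 (-0.60 and -0.41), and that of CLDN3 without HT29 OXA replicate 1 or 3 or HTOXAR3 OXA replicate 2 or 3 (-0.32 to -0.27 over the 6 fits). Without HTOXAR3 OXA replicate 2, 1 of the 4 calls was left.

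Under OXA plus Curcumin, 3 of the 10 genes were called, against 13.9% of all names (6.95% higher and 6.92% lower) and 25.9% of expressed names. CLDN2 was 2.67-fold lower in HTOXAR3 (log2 -1.41, SE 0.12, adjusted p = 8.18e-06, limma with BY). CLDN1 was 1.61-fold lower (-0.69). OCLN was 1.40-fold higher (0.48, SE 0.079, adjusted p = 0.00396, limma with BY), a call its second probe did not make (0.37). CLDN1 and CLDN2 were thus lower in HTOXAR3 in all 3 conditions, and for both genes the 2 lines did not overlap in any of them. OCLN was higher in HTOXAR3 in untreated cells and under both drugs, while under OXA alone its log2 difference was -0.13 (CI -0.30 to 0.04).

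**Figure D2:**
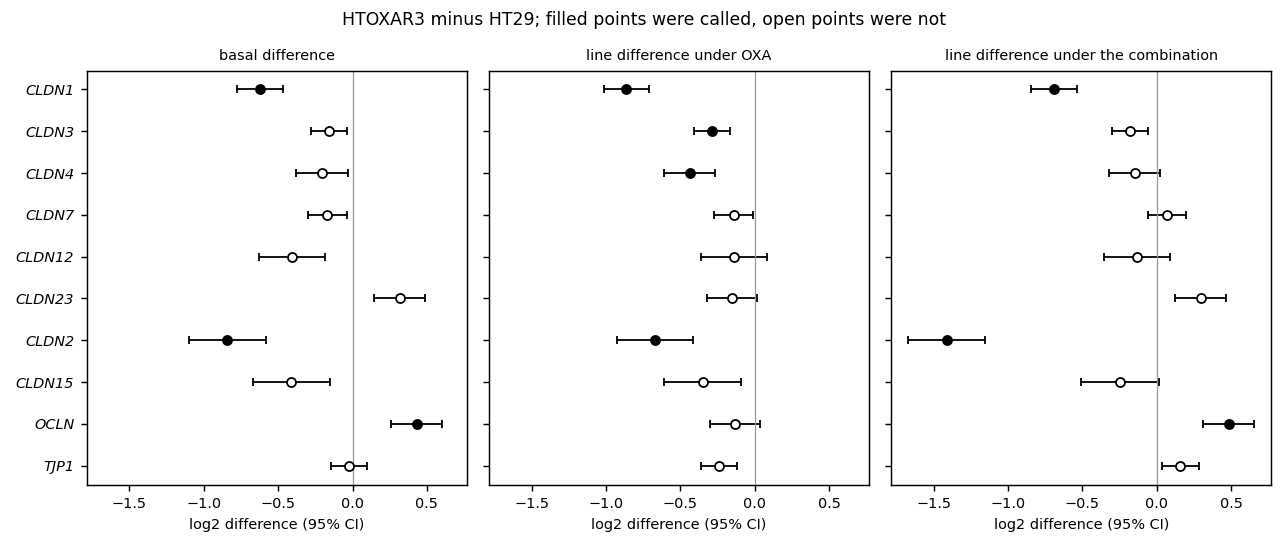
Log2 difference HTOXAR3 minus HT29 with its 95% CI for the 10 genes in untreated cells, under OXA and under OXA plus Curcumin. Filled points were called and open points were not. CLDN1 and CLDN2 lie below 0 in all 3 panels (CLDN2 at -0.84, -0.67 and -1.41), and OCLN lies above 0 in the first and the last.

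The response to OXA asks what the drug alone did in each line. In HT29, 8 of the 10 genes were called, 5 higher and 3 lower, against 15.9% of all names (8.33% higher and 7.62% lower) and 31.0% of expressed names. Their median log2 difference was 0.27 against -0.01 over all names, and the count fell to 5 without untreated replicate 2. In HTOXAR3, 6 were called, 5 higher and 1 lower, against 10.2% of all names (5.31% higher and 4.94% lower) and 20.0% of expressed names, with a median of 0.10 against 0.01. Leaving out any 1 of its arrays took that count to 2 or 3, close to the share of expressed names. The 6 genes called in HTOXAR3, which were CLDN1, CLDN2, CLDN15, CLDN23, OCLN and TJP1, were called in HT29 in the same direction. Each line's response was measured against its own untreated arrays.

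OCLN showed the highest rise of the set in HT29, from 7.71, 7.78 and 7.88 in untreated cells to 8.98, 8.93 and 8.96 under OXA. This was 2.25-fold (log2 1.17, SE 0.079, adjusted p = 9.03e-07, limma with BY). In HTOXAR3 it went from 8.14, 8.32 and 8.20 to 8.86, 8.87 and 8.75, a 1.52-fold rise (0.61, adjusted p = 0.000894, limma with BY). In neither line did the treated arrays overlap the untreated ones. TJP1, the scaffold, rose by 0.51 in HT29, where its 3 OXA arrays stood at 11.82, 11.82 and 11.83 against 11.31, 11.29 and 11.33. In HTOXAR3 TJP1 rose by 0.29. That call held in 1 of the 6 fits that left out an array, the one without OXA replicate 2 (0.26 to 0.33 over the 6).

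CLDN2 fell 1.98-fold in HT29, to 13.96, 13.83 and 13.98 (log2 -0.99, SE 0.12, adjusted p = 0.000224, limma with BY). In HTOXAR3 it fell 1.76-fold, to 13.36, 13.11 and 13.29 (-0.82, adjusted p = 0.00234, limma with BY). The untreated and treated arrays did not overlap in either line, and the OXA level of HT29 lay just under the untreated level of HTOXAR3. The other pore-forming claudin, CLDN15, moved the other way and rose by 0.59 in HT29 and by 0.65 in HTOXAR3. The CLDN15 call in HT29 was lost without untreated replicate 1 or 2 or OXA replicate 2 or 3 (0.53 to 0.69), and that in HTOXAR3 without untreated replicate 2 or 3 or OXA replicate 2 or 3 (0.57 to 0.74).

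Among the remaining claudins, CLDN1 rose by 0.59 in HT29, to 8.90, 8.97 and 9.12 (SE 0.071), and by 0.35 in HTOXAR3, to 8.08, 8.18 and 8.14. CLDN23 rose 1.80-fold in HT29 (0.85, adjusted p = 2.2e-05, limma with BY) and 1.30-fold in HTOXAR3 (0.38, adjusted p = 0.0396). The CLDN23 call in HTOXAR3 was lost in each of the 6 fits that left out an array (0.36 to 0.41), with the slide as a block (0.36, adjusted p = 0.0892) and with the replicate number as a block (adjusted p = 0.0517). The CLDN1 call in HTOXAR3 held only without untreated replicate 3 (0.31 to 0.39 over the 6 fits). CLDN7 and CLDN12 fell in HT29, by 0.29 and 0.48 on the log2 scale, and both calls changed with the array left out. CLDN7 lost its call without untreated replicate 1 or 2 or OXA replicate 2 or 3 (-0.32 to -0.26), and CLDN12 without untreated replicate 2 or 3 or OXA replicate 1 (-0.57 to -0.36). In HTOXAR3 CLDN7 was at -0.27 with an adjusted p of 0.0606 (limma with BY) and CLDN4 at -0.25 with an adjusted p of 0.454.

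**Figure D3:**
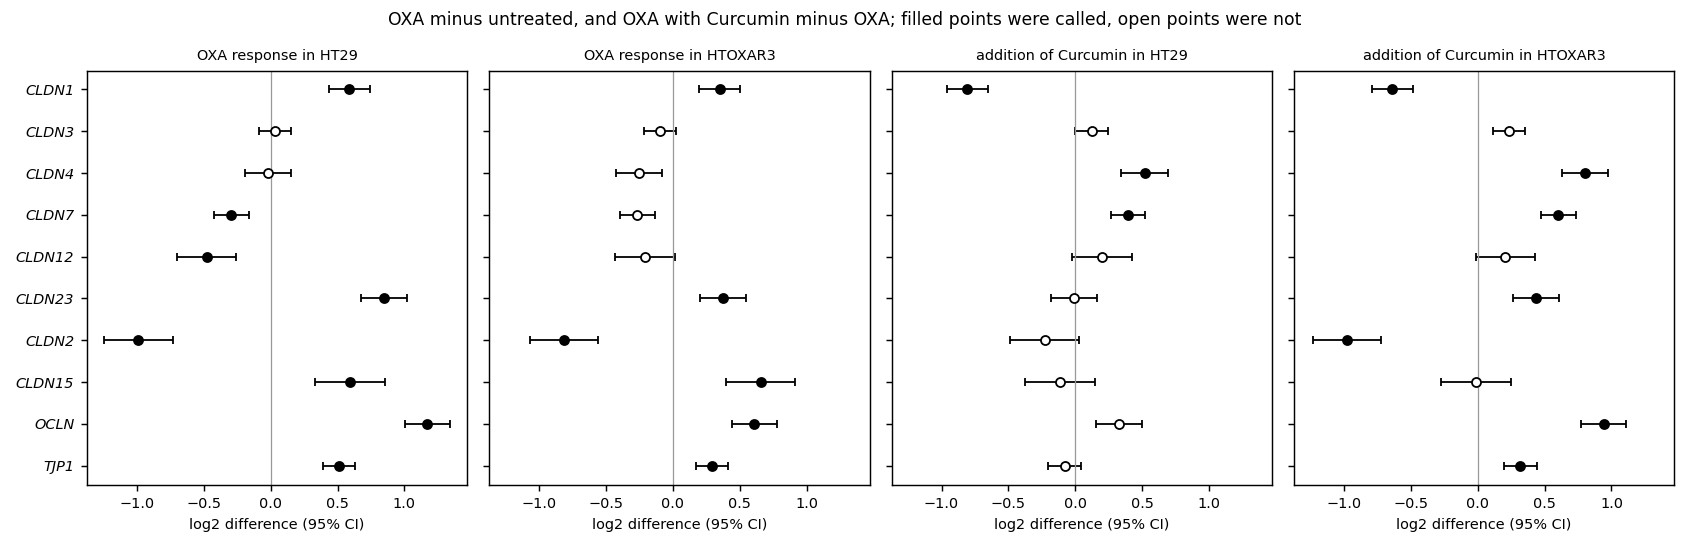
Log2 differences with 95% CI for OXA minus untreated (left pair of panels) and OXA plus Curcumin minus OXA (right pair), in HT29 and HTOXAR3. Filled points were called and open points were not. CLDN1 lies right of 0 with OXA (0.59 and 0.35) and left of 0 with added Curcumin (-0.81 and -0.64), and CLDN4 and CLDN7 lie right of 0 with added Curcumin in both lines.

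The addition of Curcumin compares OXA plus Curcumin with OXA alone and so asks what Curcumin changed in cells already under the platinum drug. It shares the OXA arrays with the comparison above, entering them with the opposite sign. In HT29, 3 of the 10 genes were called, 2 higher and 1 lower, against 5.53% of all names (3.14% higher and 2.39% lower) and 10.9% of expressed names. In HTOXAR3, 7 were called, 5 higher and 2 lower, against 8.83% of all names (4.43% higher and 4.41% lower) and 17.3% of expressed names. The medians of the 10 genes were 0.06 and 0.28, against -0.02 over all names in either line. The 3 genes called in HT29, CLDN1, CLDN4 and CLDN7, were called in HTOXAR3 in the same direction.

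CLDN1 fell by 0.81 in HT29 (SE 0.071, adjusted p = 6.92e-05, limma with BY), to 8.21, 8.14 and 8.22. In HTOXAR3 it fell by 0.64 (adjusted p = 0.000309, limma with BY), to 7.44, 7.57 and 7.49, which was the lowest group. In both lines all 3 arrays with Curcumin lay below all 3 untreated arrays, although the difference from untreated cells was not called (-0.22 in HT29 and -0.29 in HTOXAR3, adjusted p = 0.344 and 0.0708, limma with BY).

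CLDN4, a sealing claudin that limits sodium passage, rose by 0.52 in HT29, to 17.35, 17.15 and 17.24 (adjusted p = 0.00751, limma with BY). In HTOXAR3 it rose by 0.80, to 17.10, 17.02 and 17.17 (adjusted p = 0.000126, limma with BY). The arrays with Curcumin lay above those with OXA and above the untreated ones in both lines. Without replicate 1 of HT29 under both drugs the first call was lost (0.47). CLDN7 rose by 0.39 in HT29 and by 0.60 in HTOXAR3 (SE 0.060 for both), and its arrays under both drugs were the highest in HTOXAR3, at 13.21, 13.26 and 13.17. These CLDN4 and CLDN7 values are from the brighter probes. With the mean of all probes both CLDN4 calls (0.175 and 0.364) and the CLDN7 call in HT29 (0.254) were lost. CLDN3, at 0.23 in HTOXAR3, missed the threshold (CI 0.11 to 0.35, adjusted p = 0.107, limma with BY).

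OCLN, CLDN2, TJP1 and CLDN23 were called for added Curcumin in HTOXAR3 and not in HT29. OCLN rose in HTOXAR3 to 9.71, 9.68 and 9.91, 1.92-fold above OXA alone (log2 0.94, SE 0.079, adjusted p = 3e-05, limma with BY). CLDN2 fell there to 12.20, 12.42 and 12.22, 1.97-fold below OXA alone (-0.98, adjusted p = 0.000676, limma with BY). In HT29 the same steps were 0.32 for OCLN (CI 0.15 to 0.49) and -0.23 for CLDN2 (CI -0.49 to 0.03), and its CLDN2 arrays under both drugs spread widely, at 13.43, 13.65 and 14.01. TJP1 rose by 0.32 and CLDN23 by 0.44 in HTOXAR3. The TJP1 call held only without OXA replicate 1 or OXA plus Curcumin replicate 2 (0.28 to 0.37 over the 6 fits), and that of CLDN23 only without the latter (0.40 to 0.47).

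Whether these steps differed between the lines was tested as the interaction of line and treatment. None of the 10 genes was called by limma with BY adjustment for the OXA response, for the combination or for the addition of Curcumin, where 1.01%, 0.856% and 0.135% of all names and 1.96%, 1.64% and 0.258% of expressed names were called. At an unadjusted p below 0.05 there were 4, 3 and 6 of the 10, and with Benjamini-Hochberg (BH) adjustment 2, 0 and 2 were called. The shares of all names under these 2 rules are not given here, so these counts say nothing particular to the 10 genes. For added Curcumin the interaction (HTOXAR3 minus HT29) was 0.62 for OCLN (CI 0.38 to 0.86, adjusted p = 0.227), -0.75 for CLDN2 (CI -1.11 to -0.38, adjusted p = 0.65), 0.45 for CLDN23 (CI 0.21 to 0.69) and 0.40 for TJP1 (CI 0.23 to 0.57, adjusted p = 0.378), all by limma with BY. For the OXA response it was -0.56 for OCLN (CI -0.80 to -0.32, adjusted p = 0.141, limma with BY), -0.47 for CLDN23, -0.22 for TJP1 and 0.17 for CLDN2. So the resistant line had the smaller OCLN step at its OXA dose and the larger one on addition of Curcumin, without either difference passing the threshold. These 2 interactions share the OXA arrays of both lines with opposite signs and are not separate findings. For the combination against untreated cells, which does not use those arrays, the OCLN interaction was 0.05 (CI -0.187 to 0.295).

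Against untreated cells, OXA plus Curcumin gave 5 called genes in HT29, 4 of them higher, against 18.6% of all names (9.56% higher and 9.02% lower) and 35.6% of expressed names. In HTOXAR3 it gave 7, 6 of them higher, against 17.5% of all names (8.82% higher and 8.64% lower) and 33.4% of expressed names. CLDN2 was the only one of the 10 called lower in either line. It ended 2.33-fold below untreated cells in HT29 (log2 -1.22, SE 0.12) and 3.46-fold below in HTOXAR3 (-1.79, adjusted p = 8.11e-07, limma with BY). OCLN ended 2.82-fold above in HT29 and 2.93-fold above in HTOXAR3 (1.55, SE 0.079, adjusted p = 8.01e-08, limma with BY). The interaction was 0.05 for OCLN, 0.18 for TJP1 and -0.57 for CLDN2 (CI -0.94 to -0.21).

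The other calls under both drugs were rises. CLDN23 rose by 0.84 in HT29 and 0.81 in HTOXAR3, TJP1 by 0.43 and 0.61, and CLDN4 by 0.50 and 0.55. The CLDN4 call in HT29 was lost under either 75th percentile scaling (0.33 and 0.34, adjusted p = 0.0668 and 0.0921, limma with BY), and both CLDN4 calls were lost with the mean of all probes (0.26 and 0.37). CLDN7 (0.34) and CLDN15 (0.64) were called in HTOXAR3. The CLDN7 call was lost with the mean of all probes (0.10), and the second CLDN7 probe gave -0.14. In HT29 CLDN15 was at 0.48 with an adjusted p of 0.0825 (limma with BY). The CLDN15 call in HTOXAR3 was lost without untreated replicate 3 or replicate 1 or 2 under both drugs (0.57 to 0.75). These comparisons share the untreated arrays with the OXA responses, so the 2 are not independent.

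The order of the 6 groups differed by gene. For OCLN no neighbouring groups overlapped, and the order from low to high was untreated HT29 (7.79 ± 0.082, SD, n = 3), untreated HTOXAR3 (8.22 ± 0.095), HTOXAR3 under OXA (8.83 ± 0.066), HT29 under OXA (8.96 ± 0.025), HT29 under both drugs (9.29 ± 0.10) and HTOXAR3 under both drugs (9.77 ± 0.13). For CLDN2 the order from high to low was untreated HT29 (14.91 ± 0.048), untreated HTOXAR3 (14.07 ± 0.052), HT29 under OXA (13.93 ± 0.082), HT29 under both drugs (13.70 ± 0.29), HTOXAR3 under OXA (13.26 ± 0.13) and HTOXAR3 under both drugs (12.28 ± 0.12). Only the pair of treated HT29 groups overlapped among its neighbours. TJP1 was lowest in the untreated lines (11.31 ± 0.019 in HT29 and 11.29 ± 0.026 in HTOXAR3), which overlapped, and highest in HTOXAR3 under both drugs (11.90 ± 0.081), which overlapped HT29 under OXA (11.82 ± 0.0099). CLDN12 had the most overlap, with 4 of its 5 neighbouring pairs overlapping.

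The arrays lay on 3 slides, with 2, 8 and 8 arrays. Within a slide, 100 of 100 differences that could be formed for the 46 called values had the same sign as the pooled difference. The 2 groups of each called value did not overlap, so this sign was fixed beforehand. The count is therefore no check on effects of the slide. Across the 18 arrays, which all of these values share, CLDN23 ran closest to OCLN (Pearson r 0.97), and TJP1 to CLDN23 and OCLN (0.92 for both). CLDN4 ran with CLDN3 (0.86) and CLDN7 (0.84). CLDN2 ran against OCLN (-0.88), CLDN23 (-0.85) and TJP1 (-0.72). The arrays fall into 6 groups of 3, so these correlations describe the groups and are not drawn from 18 independent samples. Beyond the set, the names most like a member over the 18 arrays were CEP76 for OCLN (0.99), MOB3B for CLDN2 (0.99), RNF39 for CLDN23 (0.98), MYO1E for TJP1 (0.97), PPP1R7 for CLDN1 (0.97), ZNF394 for CLDN4 (0.96), EPB41L1 for CLDN3 (0.95), RBBP6 for CLDN7 (0.95), STK36 for CLDN15 (0.95) and, after a probe named only by an Ensembl transcript, KBTBD7 for CLDN12 (0.93).

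For the 4 genes with 2 probes, the probes were compared with each other's differences, never their levels. The OCLN probes moved the same way in all 6 treatment comparisons. The second probe gave 0.47 for OXA in HTOXAR3 against 0.61 by the first, 0.24 against 0.43 for the basal difference and 0.37 against 0.48 for the lines under both drugs, and none of these 3 was called by it. The second CLDN4 probe, 2648 bases upstream on the genome and listed for Ensembl transcripts only, was dim (group means from 5.08 to 5.35) and did not show the rise with Curcumin. It gave -0.17 in HT29 and -0.08 in HTOXAR3 (SE 0.18 for both), against 0.52 and 0.80 by the first probe. The second CLDN7 probe, 553 bases away, was bright, with group means from 11.20 to 11.78. It gave 0.12 and 0.20 for added Curcumin, not called, and -0.14 against 0.34 for the combination in HTOXAR3, while for OXA it gave -0.27 in HT29 and -0.34 in HTOXAR3, close to the first probe's -0.29 and -0.27. The annotation of the second CLDN7 probe lists 3 RefSeq mRNAs and that of the first lists 2. For CLDN12 the second probe gave -0.07 for OXA in HT29, where the first was called at -0.48. The second CLDN7 probe was not called for OXA in HT29 either (adjusted p = 0.193, limma with BY), though its value there was close to the first. The calls of CLDN4, CLDN7 and CLDN12 are thus those of a single probe each.

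**Figure D4:**
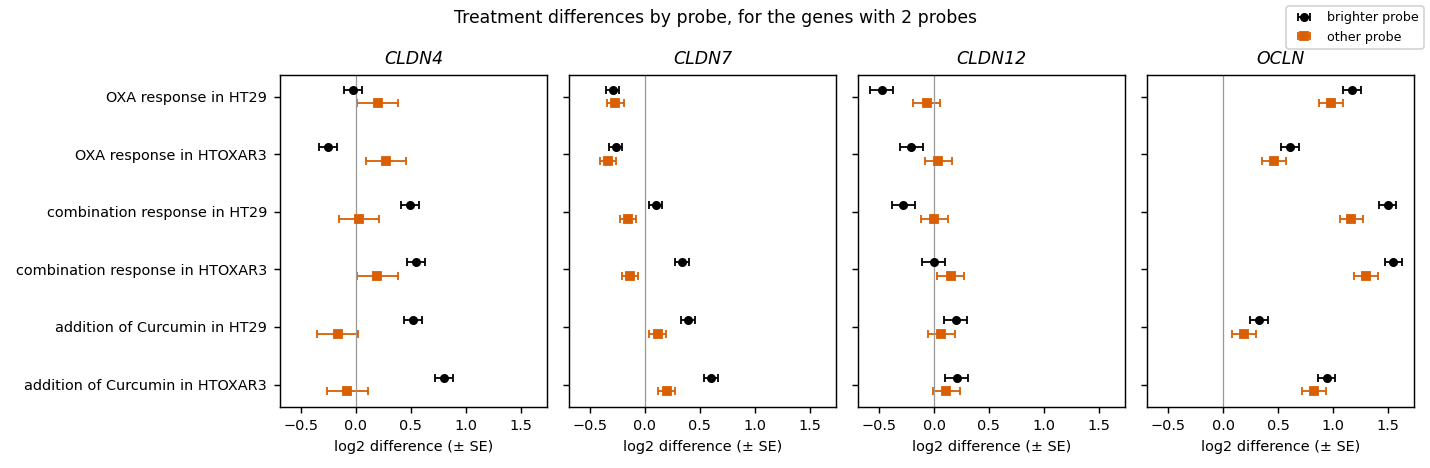
Log2 difference ± SE of 6 treatment comparisons for each probe of CLDN4, CLDN7, CLDN12 and OCLN (black circles the brighter probe, orange squares the other). The OCLN probes lie side by side, while for added Curcumin the CLDN4 probes lie at 0.52 and -0.17 in HT29 and at 0.80 and -0.08 in HTOXAR3.

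A list of 54 further tight junction genes covered other claudins, scaffolds, junctional adhesion molecules and the polarity complexes that place the junction in the cell. On the arrays 53 of them had a probe, and 32 were well above background on every array and 5 on none. In untreated cells 12 were called (22.6%), 6 higher and 6 lower in HTOXAR3, against 11.5% of all names and 21.5% of expressed names. That count fell to 6 without untreated HT29 replicate 1 or untreated HTOXAR3 replicate 1 and to 7 without untreated HT29 replicate 2. OXA gave 15 called in HT29 (28.3%), 12 of them higher, against 15.9% and 31.0%, and 8 in HTOXAR3 (15.1%), 7 of them higher, against 10.2% and 20.0%. Leaving out an array took the 8 to between 4 and 6, and it was 15 with BH adjustment. The combination gave 15 (28.3%) and 13 (24.5%) called, 11 of them higher in each line, against 18.6% and 17.5% of all and 35.6% and 33.4% of expressed names. Added Curcumin gave 3 (5.66%) and 6 (11.3%), against 5.53% and 8.83% of all and 10.9% and 17.3% of expressed names. In these comparisons the list's shares lay above those of all names. They were taken over all 53 genes, of which 32 were expressed names. So they cannot be ranked against the shares of expressed names. The median of the list was 0.16 and 0.11 for OXA in HT29 and HTOXAR3, where the 10 genes had 0.27 and 0.10. Between the lines 16 of the list were called under OXA (30.2%, against 14.1% of all and 26.4% of expressed names), 8 in each direction, and 13 under both drugs (24.5%, against 13.9% and 25.9%), 5 higher and 8 lower. The 16 became 9 without HT29 OXA replicate 2 and 10 without HTOXAR3 OXA replicate 2, and the 13 became 8 without HTOXAR3 OXA plus Curcumin replicate 3.

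**Figure D5:**
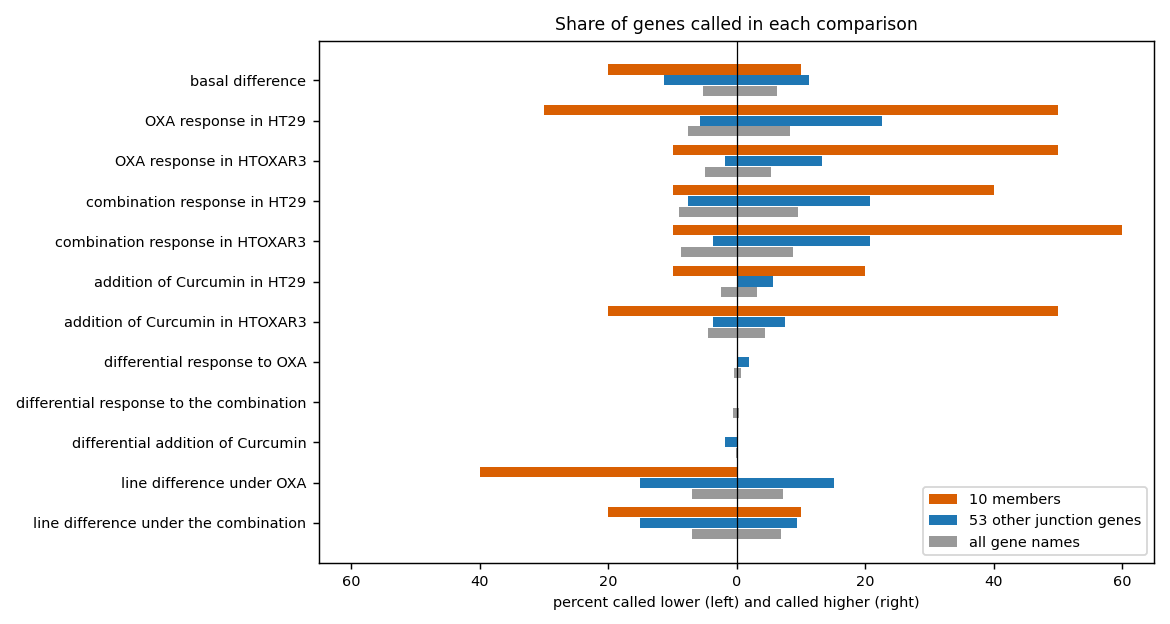
Percent of genes called lower (left of 0) and higher (right of 0) in each of the 12 comparisons, for the 10 genes, 53 other junction genes and all gene names. With OXA in HT29 the 10 genes had 5 higher and 3 lower, the 53 had 12 and 3, and 15.9% of all names were called.

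Among the scaffolds of that list, cingulin (CGN) and TJP3 (ZO-3) rose when Curcumin was added, CGN by 0.43 in HT29 and 0.73 in HTOXAR3 and TJP3 by 0.64 and 0.66 (adjusted p = 7e-05 for TJP3 in HTOXAR3, limma with BY). TJP3 was lower in untreated HTOXAR3 by 0.43 and CGNL1, the cingulin-like protein, was higher by 0.88. MLLT4 (afadin), which links junctions to actin, was lower in HTOXAR3 in all 3 conditions, by 0.71, 0.79 and 0.73. AMOTL2, an angiomotin-like protein, rose 2.30-fold with OXA in HT29 and 1.75-fold in HTOXAR3, and WNK4, a kinase that acts on claudins and ion transport in the kidney, rose by 1.17 and 1.02 on the log2 scale. WNK4 then fell by 1.28 when Curcumin was added in HTOXAR3. The second WNK4 probe gave 0.20, 0.30 and -0.15 for these steps, none of them called. Of the polarity genes, PARD6A rose with OXA in both lines (0.85 and 0.78) and CRB3 rose under both drugs (0.98 and 0.81). MAGI2, a membrane scaffold well above background on 14 of the 18 arrays, was 2.84-fold higher in untreated HTOXAR3 and fell 3.19-fold there under both drugs. The first of these calls was lost with the mean of all probes (log2 0.92 against 1.51, adjusted p = 0.0801, limma with BY). The claudin CLDN9 rose by 0.88 in HT29 under both drugs, and the polarity gene PARD6B rose by 0.79 in HTOXAR3.

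The falls of that list were spread over several genes. MARVELD1, a membrane protein with the same MARVEL fold as occludin, was higher by 0.57 in untreated HTOXAR3 and fell under both drugs by 0.54 in HT29 and 0.70 in HTOXAR3. It also fell with OXA in HTOXAR3 by 0.39, a call lost in each of the 6 fits that left out an array. AMOTL1, an angiomotin-like protein, fell in HT29 by 0.90 with OXA and by 0.75 under both drugs. The first of these calls was lost without untreated replicate 2 (-0.85) or OXA replicate 2 or 3 (-0.75 and -0.84), and the second in each of its 6 fits. YBX3, a Y-box factor that binds ZO-1, fell by 0.30 with OXA in HT29, a call lost in each of the 6 fits. SYMPK (symplekin) fell by 0.53 when Curcumin was added in HTOXAR3, where AMOTL2 rose by 0.43. Between the treated lines, MPP5 and TJAP1 were higher in HTOXAR3 under both drugs by 0.59 and 0.48, and INADL was lower in both conditions (-0.68 and -0.62). The polarity gene PARD6G was well above background on 3 of 3 HTOXAR3 arrays under OXA and on 0 of 3 of HT29. It was at least 1.81-fold higher in HTOXAR3 there (adjusted p = 0.000622, limma with BY), taking each HT29 array at no less than its lowest signal well above background.

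PRKCZ, the atypical protein kinase C of the PAR complex, was the gene of that list called for a difference between the lines in response to OXA or to added Curcumin, and its 2 probes went opposite ways with OXA in HT29. By the brighter probe, in HT29 it fell with OXA from 14.59 ± 0.011 to 13.48 ± 0.056 (SD, n = 3, log2 -1.11, SE 0.058, adjusted p = 7.28e-08, limma with BY). In HTOXAR3 the means were 14.10 ± 0.015 and 14.10 ± 0.063. The difference of these steps came to 1.10 (SE 0.082, adjusted p = 3.38e-05, limma with BY). By contrast, the second PRKCZ probe rose with OXA in HT29 by 0.83 (SE 0.13, adjusted p = 0.00282, limma with BY) and gave 0.02 in HTOXAR3, and its interaction was -0.80 (adjusted p = 0.385, limma with BY). With the mean of both probes the interaction was 0.15 and was not called. Added Curcumin gave 0.53 in HT29 by the brighter probe and -0.25 by the second. The brighter probe's interaction for that step was -0.66 (adjusted p = 0.0267, limma with BY), a call lost in 16 of 23 alternatives, among them 10 of the 12 fits that left out an array.

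Of a list of transcription factors known to act on claudin genes, 5 of 18 on the arrays were called between the untreated lines (27.8%, against 11.5% of all and 21.5% of expressed names), and the count ran from 1 to 8 over the alternatives. Of the 18, 10 were expressed names, so the last share is not on the same footing. ELF3, an epithelial ETS factor, was lower by 0.71 in HTOXAR3 (SE 0.081, adjusted p = 0.000182, limma with BY). The grainyhead factors, which activate epithelial junction genes, were higher, GRHL3 by 0.55 (0.16 by its second probe, not called), GRHL2 by 0.35 and GRHL1 by 0.29. Leaving out an array ended the call of GRHL2 in each of 6 fits, that of GRHL1 in all but the one without untreated HT29 replicate 3 (0.35), and that of GRHL3 in that one (0.50). GRHL3 also rose with OXA, by 1.41 in HT29 and 0.92 in HTOXAR3 (0.12 and -0.07 by its second probe, well above background on 13 arrays), and under both drugs it reached 10.97 ± 0.13 in HTOXAR3 against 8.95 ± 0.012 untreated. The second GRHL3 probe gave 0.15 for that last step, not called. ELF3 fell with OXA in both lines (-0.66 and -0.84) and rose when Curcumin was added (0.76 in each). SNAI1, a repressor of epithelial junction genes, rose in the same comparisons and was named, with ZEB1, after its values were seen. SNAI1 rose 2.34-fold under both drugs in HT29 and 3.44-fold in HTOXAR3 (log2 1.23 and 1.78, SE 0.088). Added Curcumin raised SNAI1 by 0.84 and 1.38, and OXA alone by 0.39 and 0.41, calls that were lost in each fit that left out an array. ZEB1, another such repressor, was dim, well above background on 2 of 3 untreated HTOXAR3 arrays (mean 4.57) and on 16 of the 18 arrays. It was called higher in HTOXAR3 by 0.86 with OXA and by 0.86 under both drugs. The first ZEB1 call held only without untreated replicate 3 (0.99). The second was lost without untreated replicate 1 or 2 (0.89 and 0.70) or replicate 2 or 3 under both drugs (0.80 and 0.83). The part of these factors in the levels of the junction genes was not tested.

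Promoters are shown for CLDN2 and OCLN, which moved in opposite directions. They come from RefSeq, on GRCh38.p14, a build other than that of the probe positions. In the set of promoters used here 9 of the 10 genes have an entry, with 15 start sites in all, CLDN23 being the exception. Both CLDN2 starts and the upstream of the OCLN starts are printed as the 250 bases before the start, 5′ to 3′ on the plus strand. The windows are chrX:106899914-106900163 and chrX:106918110-106918359 for CLDN2 and chr5:69492297-69492546 for OCLN. Capitals mark matches, on either strand, to a set of short motifs. They were the E-box of the SNAI and ZEB repressors, spelled CACCTG, and the GC box of SP1, spelled GGGCGG. For intestinal factors they were the CDX site TTTATNG, and the GATA site, spelled TGATAA. The AP-1 site was spelled TGANTCA, and the TATA box TATAAA.
CLDN2 first start: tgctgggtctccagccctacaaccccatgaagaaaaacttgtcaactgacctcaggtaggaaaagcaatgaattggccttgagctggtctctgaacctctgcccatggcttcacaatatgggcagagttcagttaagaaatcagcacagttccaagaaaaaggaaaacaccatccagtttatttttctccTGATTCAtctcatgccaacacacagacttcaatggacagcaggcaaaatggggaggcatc
CLDN2 second start: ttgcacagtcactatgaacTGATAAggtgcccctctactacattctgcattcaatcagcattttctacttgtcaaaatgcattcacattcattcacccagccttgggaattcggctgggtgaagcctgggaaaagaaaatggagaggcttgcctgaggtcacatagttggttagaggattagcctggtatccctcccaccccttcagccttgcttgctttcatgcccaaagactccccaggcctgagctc
OCLN: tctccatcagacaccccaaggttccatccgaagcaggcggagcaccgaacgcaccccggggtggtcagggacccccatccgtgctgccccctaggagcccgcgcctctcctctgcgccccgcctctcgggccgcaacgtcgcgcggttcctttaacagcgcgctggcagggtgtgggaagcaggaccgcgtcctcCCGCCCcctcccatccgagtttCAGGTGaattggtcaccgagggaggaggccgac

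The OCLN window held an E-box at -33 and a GC box at -55 from the start. The CLDN2 windows held an AP-1 match at -60 from the first start and a GATA match at -231 from the second, and no E-box, GC box or TATA box. Over 300 bases around the start, the E-box was found in 20.6% of 35116 promoters of all genes, the GC box in 45.0%, the AP-1 motif in 7.71% and the GATA motif in 7.53%. Of the 15 windows of the 9 genes, 5 held the E-box, 9 the GC box, 3 the AP-1 motif and 1 the GATA motif. The CDX motif was found in 9.73% of all promoters and the TATA box in 11.5%, and neither in any of the 15 windows of the 9 genes. The core of the antioxidant response element, TGACNNNGC, was found in 6 of the 15 windows and in 13.3% of all promoters, once in a printed window, at -248 from the second CLDN2 start, where it is left in lower case. A match is a run of letters and no evidence of binding, and the probe of CLDN2 pools its 3 RefSeq mRNAs.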

How the data were processed

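Agilent Feature Extraction output of 18 one-colour arrays was used. The authors deposited, per spot, the mean intensity, the local background intensity and a processed intensity, on a linear scale and not normalized between arrays. The authors' series table was not used, since its lines carry no gene name. Following the study's methods, normexp (offset 0, the offset is not given in the sources used here) and quantile normalization were applied. Control spots were then dropped, flagged outlier spots were treated as missing, replicate spots were averaged, and the probe with the highest mean over the arrays stood for each gene name. A model with 1 term for each of 6 groups was fitted with limma 3.58.1 in R 4.3.3, called at BY adjusted p below 0.05 and fold change above 1.2. Precision is limited by having 3 arrays in each group. The script was tested on simulated data. The 10 genes and the lists were chosen with earlier results of these data known. Named were the 10 genes, for the junction list the 3 largest called rises and falls per comparison, the transcription factors called in untreated cells (1 is not reported here) and, after their values were seen, 2 others, and the names most like each gene. The second probes of PRKCZ, WNK4 and GRHL3 were compared after seeing the data. Same-numbered arrays deviated together in every pair (r above 0.1) for OXA in HT29 (0.117 to 0.242) and added Curcumin in HTOXAR3 (0.109 to 0.195), where all 3 pairs shared a slide, and not in the other 7 of 9 pairs of groups.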

Additional observations from a re-analysis of the deposited data

Results flagged for a closer look

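TJP1 rose in HTOXAR3 when Curcumin was added to OXA (0.32), while the step in HT29 was -0.08 with a CI that held 0 (-0.20 to 0.04, adjusted p = 1, limma with BY). Measured from the mean of the OXA arrays, every HTOXAR3 array lay higher (0.23 to 0.37 on the log2 scale) and every HT29 array lower (-0.14 to -0.02). The difference of these steps, 0.40, was tested as an interaction and was not called by limma with BY (adjusted p = 0.378), though it was with BH adjustment (adjusted p = 0.0341).

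By the brighter of its 2 probes, PRKCZ was called for the difference between the lines in the response to OXA (1.10) and in the addition of Curcumin (-0.66). The first interaction was -0.80 by the second probe, not called, and 0.15 with the mean of both. The second call was lost in 16 of 23 alternatives. By the brighter probe PRKCZ fell with OXA in HT29, from 14.59 to 13.48, and had a mean of 14.10 in HTOXAR3 with and without OXA.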

How the results depend on the processing

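Of the 46 called differences of the 10 genes, all kept their call with normexp offsets of 16 and 50, with dim names left out and with BH adjustment. The processed intensity and 75th percentile scaling each cost 3 calls, the mean of all probes 9, the slide as a block 2, the replicate block 1, a fold change minimum of 2 cost 40 and fits on only the groups compared, with fewer arrays to estimate the spread, cost 34. Scaling to the 75th percentile moved the median of all names by up to -0.20 (OXA in HTOXAR3, processed intensity) and 0.15 (lines under OXA, normexp). No call of the 10 genes changed sign under a scaling. The counts called moved as follows. With a fold change minimum of 2 they became 0 for the basal difference, OXA in HTOXAR3, the lines under OXA and added Curcumin in both lines, 1 for OXA in HT29 and the lines under both drugs, and 2 for the combination in both lines. In fits on only the groups compared they became 1 for the basal difference and for the lines under OXA and under both drugs, 2 for OXA and the combination in HT29, and 0 for OXA in HTOXAR3 and added Curcumin in both lines. The basal count became 5 with dim names left out and 6 with BH. The count for the lines under OXA became 2 with either scaling. Added Curcumin in HT29 gave 1 with the mean of all probes. The interaction for OXA gave 1 with the processed intensity, 1 with dim names left out and 2 with BH, and that for added Curcumin gave 1 with an offset of 50 and 2 with BH. With single arrays left out the counts ran from 2 to 4 for the basal difference, 5 to 7 for OXA in HT29, 2 to 3 for OXA in HTOXAR3, 5 to 5 and 6 to 7 for the combination in HT29 and HTOXAR3, 2 to 3 and 5 to 7 for added Curcumin, 1 to 4 for the lines under OXA, 3 to 3 under both drugs, and 0 to 0 for the interactions.

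Among the called values and the others given above, the other probe turned the sign of 5. CLDN4 gave -0.17 and -0.076 for added Curcumin in HT29 and HTOXAR3, 0.076 for the lines under OXA and 0.27 for OXA in HTOXAR3 (0.01 with the mean of all probes), and CLDN7 gave -0.14 for the combination in HTOXAR3. With the replicate number as a block, CLDN23 for OXA in HTOXAR3 kept its 0.38 and lost its call (adjusted p = 0.0517), and CLDN1 for the combination there gained one at -0.29. The block changed no other call of the 10 genes. The 90 differences computed for genes of the 2 lists kept their sign in all 1548 alternative values, none of which took the other probe alone, and lost their call in 294. The calls of the junction list, 12 in untreated cells, ran from 0 to 16 over all settings, and its 8 for OXA in HTOXAR3 from 1 to 15.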
